A study of Mus musculus with 4 samples.

Results

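Notch receptors, their ligands and the Hes and Hey transcription factors were compared between dorsal and medial palliums of wild-type (WT) and Tut1 knockout mouse embryos at E11.5. The set comprised 10 genes, picked by symbol for their place in the pathway, out of 16449 genes in the count table. They were the receptors Notch1, Notch2 and Notch3, the ligands Dll1, Dll3 and Jag1, and the nuclear factors Hes1, Hes5, Hes6 and Hey1. Of these, 8 had a row, and Notch2 and Notch3 were not analysed here. Only 4 members, Notch1, Dll1, Dll3 and Hes1, had enough reads to pass the filter on low counts. None of the 4 differed between the groups beyond the spread of replicates.

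The dorsal and medial palliums are the parts of the forebrain wall that give rise to the neocortex and hippocampus. Tut1 encodes the uridylyltransferase of the spliceosomal RNA U6, and the comparison addressed how its loss changes RNA in neural stem cells. There were 2 WT libraries and 2 libraries labelled Tut1 KO, read by Nanopore long-read sequencing. According to the study, the knockout embryos were Tut1 f/f;Emx1-Cre, and the WT libraries were also Tut1 f/f but without Cre, so that both groups carried the floxed allele. Emx1-Cre recombines in progenitors of the dorsal forebrain and in their descendants, so that vessels, microglia and mesenchyme in the dissected tissue should keep Tut1. The number of embryos per library is not given in the sources used here. The sources used here do not say how replicates were set apart, so p-values measure only the spread between these libraries, part of which may be technical.

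In the Notch pathway, a ligand on one cell binds a receptor on its neighbour. The receptor is then cut, and its freed intracellular part joins the DNA-binding protein RBPJ in the nucleus and switches on Hes and Hey genes. Hes1 and Hes5 repress proneural genes such as Neurog2 and so keep cortical progenitors undifferentiated, while cells that express proneural factors raise Dll1 and present it to their neighbours.

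The libraries were shallow. Total counts over genes ranged from 305642 to 397150, and the median count of a tested gene lay between 19 and 25 per library. Counting noise did not account for the spread of replicates (chi-square over degrees of freedom, 1.64 for the WT pair and 1.49 for the other pair). WT replicate 1 was the only library with Xist counts (64) and without counts of Y-linked genes, so the groups were not matched for sex and the WT replicates held different embryos. Tut1 itself had 6 and 11 counts in WT, against 29 and 25 in libraries labelled Tut1 KO. It thus rose, with a log2 fold change (± SE) of 1.71 ± 0.40 and an edgeR adjusted p of 0.0113. Recombination removes only part of the gene, which gene-level counts do not resolve. These counts therefore do not check the labels. The number of genes detected was 12442 and 12788 in WT, against 13158 and 12522 in libraries labelled Tut1 KO. The study lists the same numbers for its Tut1 f/f and Tut1 f/f;Emx1-Cre libraries, so the columns follow the study's own naming. An exchange of labels before that naming was not tested, and all directions below rest on the labels as deposited.

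The 8 members together held 237 of 1456374 counts in the 4 libraries, or 163 per 1000000 counts. Single values ranged from 0 to 22 counts per member and library. Levels are given in CPM, that is, counts per 1000000 of the library total after correction by TMM, a normalization that sets the bulk of genes equal between libraries. A floor of 3 counts, the most that a count of 0 allows, corresponded to between 7.35 and 9.67 CPM per library. Floors and intervals from counts cover counting error only.

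RBPJ recognises a short DNA motif, and Hes5 is the member whose promoter shows it. Promoter windows of 300 bases (250 before and 50 after the start of transcription) were taken from RefSeq (GRCm38.p6), which held 10 windows for 8 of the 10 members. Hes1 and Hey1 had no entry. The RBPJ core GTGGGAA was searched for on both strands. It was found in 1 of the 10 windows, that of Hes5, and in 6.38% of all 32851 windows. The Hes5 window (GRCm38.p6, chr4:154960673-154960972, plus strand) held it once on each strand, beginning 226 and 83 bases before the start, an arrangement present in 33 of the 32851 windows. It is printed because Hes5 is a classical Notch target and the one member with a match, and both matches are in capitals.
Hes5: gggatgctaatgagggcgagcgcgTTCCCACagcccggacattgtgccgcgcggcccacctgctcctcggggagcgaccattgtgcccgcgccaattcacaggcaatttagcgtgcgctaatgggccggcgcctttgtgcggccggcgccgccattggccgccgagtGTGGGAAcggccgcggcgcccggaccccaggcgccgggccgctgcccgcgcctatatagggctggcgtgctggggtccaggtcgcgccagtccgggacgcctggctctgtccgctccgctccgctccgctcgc
A match of letters is a description and does not show that RBPJ was bound.

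The order of the members depended on whether length was taken into account. By counts summed over the 4 libraries, Hes1 had 66, Notch1 48, Dll3 42, Dll1 35, Hey1 23, Jag1 11, Hes6 7 and Hes5 5. Per kilobase of the longest annotated transcript, Hes1 was at 30.9 CPM per kb (95% exact Poisson interval 23.9 to 39.3). Dll3 followed at 11.02 CPM per kb (7.94 to 14.9), and its interval did not meet that of Hes1. Dll1 at 6.71 (4.67 to 9.33) and Hey1 at 6.52 (4.13 to 9.78) were close to each other, and their intervals met that of Dll3. Notch1 was at 3.47 CPM per kb (2.56 to 4.61), Hes6 at 3.06 (1.23 to 6.30), Hes5 at 2.70 (0.876 to 6.29) and Jag1 at 1.35 (0.672 to 2.41). Below Dll3, no neighbours in this order were separated by their intervals. A long read nominally stands for 1 molecule, so dividing by length may understate long transcripts, and Notch1, with 9488 bases, moved from second place by counts to below Hey1 per kilobase.

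**Figure D1:**
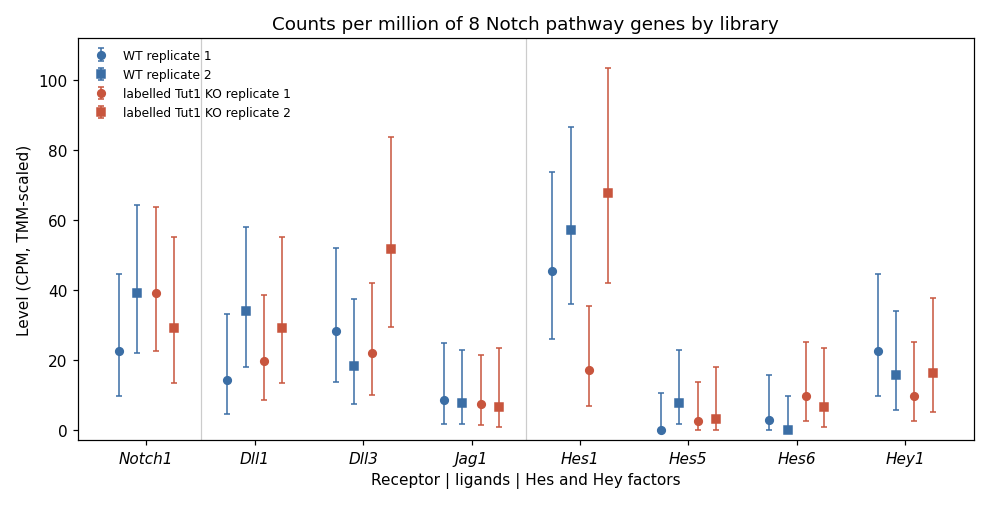
Level of each member with a row (TMM-scaled CPM, y axis) in the 2 WT libraries (blue) and the 2 libraries labelled Tut1 KO (red), with circles for replicate 1, squares for replicate 2 and bars for 95% exact Poisson intervals. The libraries of both groups overlap for every member except Jag1 and Hes6, and Hes1 is lowest in labelled Tut1 KO replicate 1 (17.1 CPM) and highest in labelled Tut1 KO replicate 2 (67.7 CPM).

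Among receptors, Notch1 (ENSMUSG00000026923; GRCm38 chromosome 2, 26457903 to 26516663) is the main receptor of pallial progenitors and also acts in blood vessels. It had 8 and 15 counts in WT, against 16 and 9 in libraries labelled Tut1 KO. These values interleave, and the level was 30.8 ± 11.6 CPM in WT, against 34.1 ± 7.2 CPM in libraries labelled Tut1 KO (mean ± SD, n = 2 each). The log2 fold change was 0.17 ± 0.45 (SE, edgeR quasi-likelihood test, adjusted p = 0.918), with a 95% interval from -0.74 to 1.07. The interval takes in a doubling, so a change of that size was not excluded. In bulk tissue, fewer cells of a type and less RNA per cell cannot be told apart. Genes on the opposite strand overlap Notch1, and since the use of strand in counting is not given in the sources used here, some of its reads could belong to them.

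Of the ligands, Dll1 (ENSMUSG00000014773; chromosome 17, 15367354 to 15376872) activates Notch on neighbouring cells and is raised in cells leaving the progenitor state. It had 5 and 13 counts in WT, against 8 and 9 in libraries labelled Tut1 KO. Both of the latter lay between the WT values, and the log2 fold change was -0.024 ± 0.54 (SE, edgeR adjusted p = 0.994, 95% interval -1.11 to 1.06). A930024N18Rik overlaps Dll1 on the opposite strand.

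Dll3 (ENSMUSG00000003436; chromosome 7, 28293553 to 28302238) encodes a ligand of newborn neurons that acts within the cell and does not activate receptors on neighbours. It had 10 and 7 counts in WT, against 9 and 16 in libraries labelled Tut1 KO, where only replicate 2 lay above both WT libraries. Levels were 23.3 ± 7.1 CPM in WT, against 36.8 ± 20.9 CPM in libraries labelled Tut1 KO (SD, n = 2 each). The log2 fold change of 0.61 ± 0.50 (SE) did not pass the threshold (edgeR adjusted p = 0.650, 95% interval -0.39 to 1.62).

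Jag1 (ENSMUSG00000027276; chromosome 2, 137081456 to 137116644), a ligand of a second family that is also strong in vessels, stayed at the floor. It had 3 counts in each WT library, and 3 and 2 in the libraries labelled Tut1 KO. Its levels were 8.49 and 7.80 CPM in WT, against 7.35 and 6.45 in libraries labelled Tut1 KO, so the groups did not overlap, although the counts differed by a single read. The ratio of the summed levels was 0.855, with an exact counting interval from 0.206 to 3.36.

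Hes1 (ENSMUSG00000022528; chromosome 16, 30064384 to 30067796), the Notch target that represses proneural genes in progenitors, had the largest SD of the members in CPM, a scale on which SD grows with level. It had 16 and 22 counts in WT, against 7 and 21 in libraries labelled Tut1 KO. Replicate 1 of the latter lay below both WT libraries and replicate 2 above both, at 17.1 and 67.7 CPM. The mean level was 51.3 ± 8.4 CPM in WT, against 42.4 ± 35.7 CPM in libraries labelled Tut1 KO (SD, n = 2 each). The log2 fold change was -0.36 ± 0.43 (SE, edgeR adjusted p = 0.794, 95% interval -1.23 to 0.51).

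Hes5 (ENSMUSG00000048001; chromosome 4, 154960923 to 154962371), the other classical Notch target of cortical progenitors, was barely counted. It had 0 and 3 counts in WT, against 1 count in each library labelled Tut1 KO. Both groups were at or under the floor of 3 counts, and no fold change can be given. By comparison, the pallial progenitor gene Pax6 had between 93 and 137 counts per library. Among genes past the filter, those closest to Hes5 in their pattern over the 4 libraries were Nup155, Peg3 and Six3, with root mean square differences of 0.0441, 0.0620 and 0.0736 in centred log2 CPM. This likeness rests on the 5 counts of Hes5.

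Hes6 (ENSMUSG00000067071; chromosome 1, 91411483 to 91414038), which opposes Hes1 and is raised by proneural factors in differentiating cells, had 1 and 0 counts in WT, against 4 and 2 in libraries labelled Tut1 KO. The groups did not overlap, but the summed counts were 1 against 6. The ratio of summed levels was 6.16, with an exact counting interval from 0.747 to 283 that includes equal levels. In the fit without a filter its unadjusted p was 0.106 and its adjusted p 0.729 (edgeR).

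Hey1 (ENSMUSG00000040289; chromosome 3, 8663359 to 8667256), a Notch target of progenitors and of endothelium, had 8 and 6 counts in WT, against 4 and 5 in libraries labelled Tut1 KO. In CPM the groups overlapped, at 22.7 and 15.6 CPM in WT, against 9.80 and 16.1 in libraries labelled Tut1 KO. The log2 fold change was -0.57 ± 0.63 (SE, edgeR fit without filter, adjusted p = 0.862, 95% interval -1.81 to 0.67).

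By the edgeR quasi-likelihood test, 0 of the 4 tested members were past an adjusted p of 0.05, and 0 had an unadjusted p below 0.05. Across all 5878 genes past the filter, 2.06% were called. Limma-voom likewise called 0 of the 4. DESeq2 gave them no adjusted p, since its own filter removed them, and 0 had an unadjusted p below 0.05. Without a filter, edgeR called 0 of the 8 members with a row, against 0.935% of 15083 genes, and 0 had an unadjusted p below 0.05. The groups overlapped in CPM for all 4 tested members, whereas 43.1% of the 5878 genes did not overlap. With so few members and counts, these shares do not set the members apart from other genes.

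**Figure D2:**
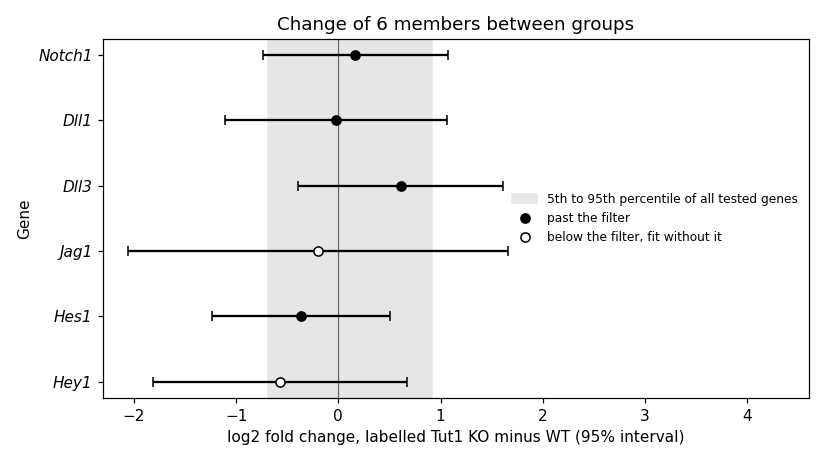
Log2 fold change of 6 members (x axis, labelled Tut1 KO minus WT) with 95% intervals from the edgeR fit; filled circles passed the filter, open circles come from the fit without it, and the grey band spans the 5th to 95th percentile of all tested genes (-0.69 to 0.92). Every interval includes 0, and those of Dll1 and Jag1 reach beyond a doubling or halving in both directions. Hes5 and Hes6 are left out for having 3 or fewer counts in a group.

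The summed counts of each role were likewise interleaved. The 3 ligands had 18 and 23 counts in WT, against 20 and 27 in libraries labelled Tut1 KO. The 4 Hes and Hey factors had 25 and 31 counts in WT, against 16 and 29 in libraries labelled Tut1 KO, or 70.8 and 80.6 against 39.2 and 93.5 CPM. For the Hes and Hey factors the 2 libraries labelled Tut1 KO thus lay on either side of both WT libraries.

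Single libraries decided the direction of all 4 tested members. Hes1 had a log2 fold change of 0.40 without labelled Tut1 KO replicate 1 and -1.55 without labelled Tut1 KO replicate 2. The latter had an unadjusted p of 0.0113 and an adjusted p of 0.276 (edgeR). Dll3 went from 1.16 without labelled Tut1 KO replicate 1 to -0.048 without labelled Tut1 KO replicate 2. Dll1 was at 0.74 without WT replicate 2 and 0.26 without labelled Tut1 KO replicate 1, and at -0.50 without WT replicate 1. Notch1 was at -0.16 without WT replicate 1 and -0.093 without labelled Tut1 KO replicate 1. None of the 4 was called with any library left out. In these fits 1 group is a lone library, which was assumed to vary like the other group and like the rest of the genes.

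**Figure D3:**
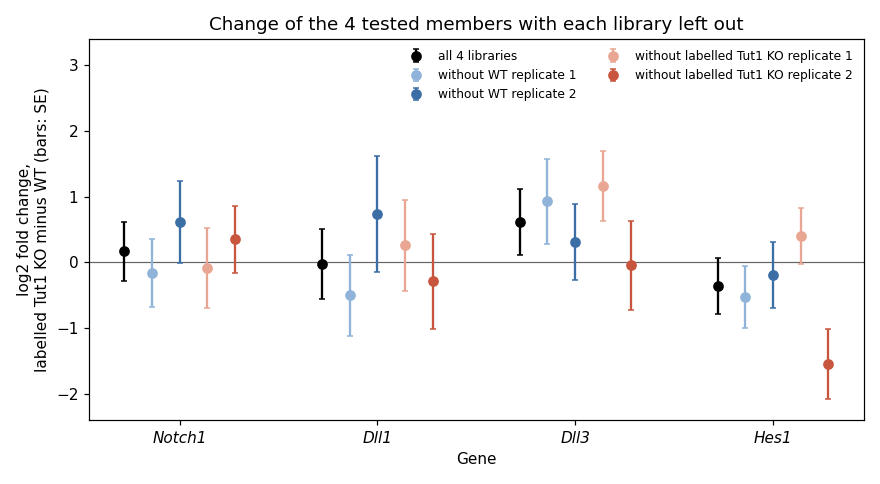
Log2 fold change (y axis, bars are SE) of the 4 tested members with all libraries (black) and with each library left out in turn. Hes1 ranges from -1.55 to 0.40 and Dll3 from -0.048 to 1.16, depending on which library labelled Tut1 KO is kept.

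The rest of the pathway was then examined, using 65 further genes listed by role, of which 56 had a row and 24 passed the filter. By edgeR, 0 of the 24 were called, 2 had an unadjusted p below 0.05, and limma-voom also called 0. DESeq2 called 0 of the 10 for which it gave an adjusted p. Their median log2 fold change was 0.04, against -0.014 over all tested genes, with 12 higher and 12 lower. The groups did not overlap for 10 of the 24 (41.7%), 6 with the libraries labelled Tut1 KO above WT and 4 below, close to the 43.1% of all genes.

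In the nucleus, Rbpj, the DNA-binding partner of the cut receptor, had 9 and 20 counts in WT, against 16 in each library labelled Tut1 KO (log2 fold change 0.20 ± 0.41, edgeR adjusted p = 0.892). Snw1, a protein of the RBPJ complex that also belongs to the spliceosome, had 67 and 80 against 76 and 65 counts, and its log2 fold change was -0.0029 ± 0.22 (SE). Of the co-repressors through which Hes proteins act, Tle1 had 15 and 25 counts in WT against 28 and 25 (0.46 ± 0.34, adjusted p = 0.597). Tle3, also a Groucho-type co-repressor, was at 100 and 124 counts in WT and at 159 and 89 in the other pair (0.18 ± 0.19, adjusted p = 0.749).

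Among genes that cut or modify the receptor, none passed the test. Psenen and Ncstn, subunits of the γ-secretase that frees the intracellular part, had log2 fold changes of 0.53 ± 0.44 and 0.50 ± 0.46 (edgeR adjusted p = 0.663 and 0.699). Poglut1, which adds glucose to the receptor, was at 0.51 ± 0.52. Mfng, a Fringe enzyme that tunes which ligand the receptor prefers, had 58 and 53 counts in WT, against 51 and 46 in libraries labelled Tut1 KO (-0.14 ± 0.25, adjusted p = 0.875). Of the endocytic adaptors that act on ligands, Epn2 was at 0.55 ± 0.34 and Epn1 at 0.093 ± 0.27.

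The smallest p among modulators of the receptor was that of Dtx3, a Deltex-family ubiquitin ligase. It had 23 and 29 counts in WT, against 46 and 33 in libraries labelled Tut1 KO (log2 fold change 0.65 ± 0.29, unadjusted p = 0.0291, edgeR adjusted p = 0.272). Both of the latter lay above both WT libraries in CPM. Fbxw7, which marks the active receptor for destruction, had 7 and 19 counts in WT and went uncalled with 4 and 9 counts in the other pair (-0.92 ± 0.55, adjusted p = 0.480).

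The proneural genes lie downstream of Hes repression. Neurod2, a factor of young glutamatergic neurons, had 10 and 5 counts in WT, against 23 and 15 in libraries labelled Tut1 KO (log2 fold change 1.37 ± 0.45). It had the smallest p of the pathway list, 0.00389, and with an adjusted p of 0.0999 it was not called by edgeR. Neurod6, a factor of the same kind of neurons, was at 0.46 ± 0.56 (adjusted p = 0.801). Neurog2, the main proneural gene of the pallium, had 6 counts in each WT library and 8 and 9 in the libraries labelled Tut1 KO. It was below the filter (edgeR fit without filter, 0.55 ± 0.57, adjusted p = 0.862). The 4 counts of Neurog1, a related proneural gene, were all in labelled Tut1 KO replicate 1.

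**Figure D4:**
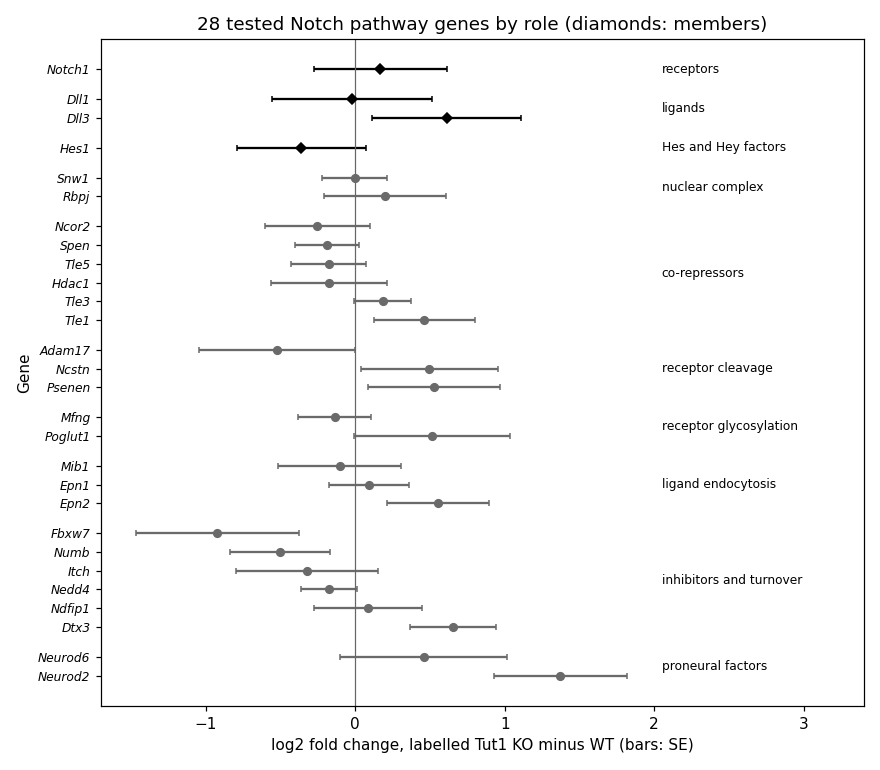
Log2 fold change (x axis, labelled Tut1 KO minus WT, bars are SE) of the 28 pathway genes past the filter, grouped by role, with members as black diamonds. Points fall on both sides of 0 in most roles, and Neurod2 at 1.37 is the farthest from it.

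Other ligands and targets had few reads and did not pass the filter. Dner, a neuronal transmembrane protein described as a Notch ligand, had 3 and 1 counts in WT, against 7 and 8 in libraries labelled Tut1 KO (edgeR fit without filter, unadjusted p = 0.0113, adjusted p = 0.305). Jag2, of the same ligand family as Jag1, had 5 and 3 against 8 and 6 counts. Among the vascular members of the pathway, Heyl had 3 and 1 against 4 and 4 counts, and Dll4 and Hey2 were not counted in WT (0 counts) and had 1 and 2 counts, respectively, in labelled Tut1 KO replicate 1.

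Several cell type markers were called different between the groups, and their part in the members' values was not tested. Summed pallial progenitor markers (8 of 8 with a row) lay between 1561 and 1892 CPM in WT, and between 972 and 1121 CPM in the libraries labelled Tut1 KO. Of the 6 tested genes, only Lhx2, a cortical selector gene, was called, and it was lower, with 348 and 272 against 106 and 106 counts. Lhx2 made up most of the difference between these sums, and 5 of the 6 had a negative log2 fold change. Emx2, a factor of the pallial field, had 48 and 62 against 23 and 31 counts (log2 fold change -0.96, edgeR adjusted p = 0.0639). The groups did not overlap for Emx2 or for Emx1, which was below the filter, and they overlapped for Pax6 and Nes. Cycling-cell markers were at 3280 to 3851 CPM in WT, against 2388 to 2675 CPM in the libraries labelled Tut1 KO. All 8 had a negative log2 fold change and 4 an unadjusted p below 0.05 (edgeR). Called lower were 2 of 8, the mitotic genes Mki67 and Cenpf. Intermediate progenitor and neuron markers were at 1381 to 1447 CPM in WT, against 2062 to 2236 CPM in the libraries labelled Tut1 KO. All 10 had a positive log2 fold change and 8 an unadjusted p below 0.05 (edgeR). Called higher were 2 of 10, the microtubule-binding genes Dcx and Mapt. Over all tested genes, 834 of 5878 had an unadjusted p below 0.05. The sum over the Notch members was 144 and 179 CPM in WT, against 127 and 209 in libraries labelled Tut1 KO.

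Notch1, Jag1 and Hey1 are also expressed in vessels, where Emx1-Cre does not act. Endothelial markers (10 of 10 with a row) summed to 218 and 239 CPM in WT, against 380 and 358 in libraries labelled Tut1 KO, although 0 of the 3 tested were called by edgeR and 1 had an unadjusted p below 0.05. Mural and mesenchymal markers (7 of 8 with a row) were at 87.8 and 224 CPM in WT, against 409 and 284 in libraries labelled Tut1 KO, and 1 of 3 tested was called higher, the collagen gene Col1a2. Microglia markers (7 of 8 with a row) summed to 101.9 and 96.2 CPM in WT, against 360 and 322 in libraries labelled Tut1 KO. Of these, 4 of 4 tested were called higher. Below the filter, P2ry12 had 4 and 0 counts in WT, against 1 and 3 in libraries labelled Tut1 KO. C1qa had 0 counts in WT and C1qb 0 in the libraries labelled Tut1 KO. Red cell markers (6 of 7 with a row) overlapped, at 1237 and 1621 CPM in WT, against 1969 and 1331 in libraries labelled Tut1 KO, and 1 of 5 tested was called lower, the embryonic globin Hbb-bh1. Whether these cells contributed to the members' counts was not tested.

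Markers of neighbouring forebrain regions also included called genes. Ventral telencephalon markers (5 of 7 with a row) summed to 0 and 46.8 CPM in WT, against 132 and 83.8 in libraries labelled Tut1 KO. Of 2 tested, Dlx1, a factor of ventral neurons, was called higher, with 0 and 8 against 34 and 14 counts (edgeR adjusted p = 0.00494). Dlx2 and Dlx5 had 0 counts in WT, and Gsx2 had 0 in the libraries labelled Tut1 KO. Markers of the cortical hem and choroid plexus, where Hes1 is high, summed to 127 and 237 CPM in WT, against 343 and 148 in libraries labelled Tut1 KO. Of 2 tested, Ttr, the transthyretin of choroid plexus, was called higher, with 31 and 26 against 114 and 29 counts (edgeR adjusted p = 0.0152), and it made up most of the highest sum. The other, Wnt8b, a signal of the hem, had 7 and 47 against 15 and 7 counts (log2 fold change -1.23, unadjusted p = 0.0145, edgeR adjusted p = 0.199). Whether these regions contributed to the members' counts was not tested. Wnt3a had 0 counts in the libraries labelled Tut1 KO.

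**Figure D5:**
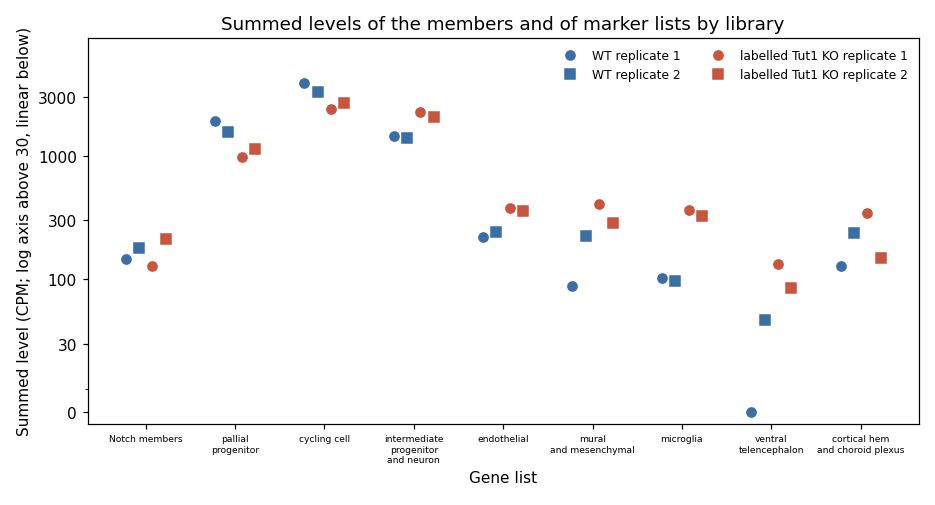
Summed level in CPM (y axis, logarithmic above 30 and linear below) of the Notch members and of 8 marker lists in each library, with WT in blue and libraries labelled Tut1 KO in red. The groups are apart for progenitor, cycling, neuron, endothelial, mural, microglia and ventral lists, and overlap for the Notch members (127 to 209 CPM) and the hem and choroid plexus list.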

How the data were processed

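Poly(A)-enriched RNA of 4 libraries was read by Nanopore sequencing, and the reads were aligned by the authors with minimap2 to the Ensembl mouse transcriptome (GRCm38) and processed with FLAIR. The deposited table holds raw counts per gene, without normalization. The summing of isoforms, the handling of multi-mapping reads and the use of strand are not given in the sources used here. The table's totals are much smaller than the numbers of reads listed by the study, and which reads went uncounted is not known. Splicing was not analysed here.

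Symbols, positions and lengths came from GENCODE M21 on GRCm38, matched for 16436 of 16449 identifiers (99.92%). Counts were tested with edgeR 4.0.16 in R 4.3.3: filterByExpr (minimum count 10, minimum total 15, 5878 genes kept), TMM, estimateDisp, glmQLFit and glmQLFTest in default form, two-sided, with Benjamini-Hochberg adjustment over all tested genes. The biological coefficient of variation was 10.5%. SE is the absolute log2 fold change over the square root of F. CPM used table totals times TMM factors. The script was tested on simulated data. Members below the filter were fitted without it. Groups and replicates were those of the sample labels. Alternatives were other size factors and filters, DESeq2 1.42.0, limma-voom (limma 3.58.1), bias-adjusted edgeR, the replicate number as a block, thinning and leaving out each library.

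Always named were the members, Tut1, Rbpj, Neurog1 and Neurog2, and 1 further gene that is not reported here. From each role, called genes or else the 2 of smallest p were named, among tested genes where there were any, and the 3 genes most like Hes5. Marker genes, Dll4 and Notch genes of vessels were named after their values were seen. Members and lists were chosen with earlier results of these data known.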

Additional observations from a re-analysis of the deposited data

How the results depend on the processing

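The count of members called was 0 under all 14 settings, so no call could be lost. The count of all genes called moved from 121 to 12 with DESeq2, which gave an adjusted p for 2915 genes, to 16 after thinning, and to between 3 and 108 when 1 library was left out (3 without labelled Tut1 KO replicate 1, 35 without labelled Tut1 KO replicate 2, 75 without WT replicate 1). Scaling by total counts gave 129, of which 105 were higher, against 82 of 121. Of the other pathway genes 0 were called under any setting. The sign of Dll1 turned with total counts (0.038), limma-voom (0.027), DESeq2 (0.011) and the replicate block (0.065). With 1 library left out, log2 fold changes ranged from -0.50 to 0.74 for Dll1, from -0.16 to 0.61 for Notch1, from -0.048 to 1.16 for Dll3 and from -1.55 to 0.40 for Hes1. None of these values was called, and the cause of the turns was not tested. Notch1, Dll3 and Hes1 kept their direction under the other alternatives, but their sizes moved. Hes1, at -0.36 in the main fit, was at -0.72 with limma-voom and -0.23 after thinning. Thinning also moved Notch1 from 0.17 to 0.29 and Dll3 from 0.61 to 0.39. Dll1 dropped out under the filter of 10 counts in 2 libraries and after thinning. Of the 4 members below the filter, Jag1, Hes6 and Hey1 have a value only in the fit without it. None is given for Hes5, whose counts were at or under the floor.

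Deviations of same-numbered libraries from their group means had r = -0.061 across 5878 genes, which are not independent. With 2 libraries per group the deviations mirror each other, and low counts add noise to them. This value therefore cannot show whether same-numbered libraries share more than a number. With the replicate block, 76 genes and 0 members were called. Depth limits every statement, since the members had at most 22 counts in a library.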

Other observations

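Markers of the pallium differed widely in their reads. Emx1, whose locus drives Cre, had 6 and 7 counts in WT, against 1 and 2 in libraries labelled Tut1 KO. Fabp7, a radial glia gene, had 9 and 6 against 12 and 11 counts, while Lhx2 had 348 and 272 against 106 in each library labelled Tut1 KO, and Nes, the intermediate filament of progenitors, had 103 and 110 against 111 and 89. Of these tissue markers, Lhx2 and Nes thus had the reads, as did Pax6, and Emx1 had few. The longest transcripts of Hes5 (1273 bases) and Hes6 (1573 bases) have GC contents of 62.1% and 61.7%, against 50.7% for Hes1 (1468 bases), 66.8% for Emx1 and 58.5% for Lhx2. Whether GC content bears on the low counts was not tested.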
